A study of Arabidopsis thaliana with 24 samples.

Results

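The interaction of salt and mannitol in unheated rosettes was measured in 12 of the 24 RNA-seq libraries of the series, as the distance of the combined treatment from the sum of the separate treatments. The plants were Arabidopsis thaliana of the accession Col-0. The 3 libraries of the salt plus mannitol group came from soil-grown plants watered with 150 mM NaCl and 200 mM mannitol together, the 3 salt libraries from plants given 150 mM NaCl, the 3 mannitol libraries from plants given 200 mM mannitol, and the 3 controls from plants for which no such watering was recorded. Rosettes were taken 16 h after watering, and all 4 groups stayed at 22 °C. The other 12 libraries repeat this layout with 4 h at 35 °C before sampling and serve here for comparison. Whether a library held 1 plant or a pool is not stated, so p-values here reflect the scatter of these libraries, which may be partly technical.

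Salt and mannitol both lower the water potential around the root, and salt adds sodium and chloride ions, which enter the plant. Leaves answer lost water through abscisic acid, which switches on protective genes such as those of dehydrins and lipid transfer proteins, while growth and photosynthesis genes are usually turned down. When 2 treatments act through a shared route, the joint response is often smaller than the sum of the separate ones.

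The departure from the sum, on the log2 scale, was the salt plus mannitol level minus the salt level minus the mannitol level plus the control level. A departure of 0 means that the separate effects add up, and a positive one that the combination lay above the sum. Adding on this scale multiplies fold changes, so a gene below the sum need not lie below the separate changes in level added together. It was fitted for all genes, and 20027 of the 27655 genes in the table passed the filter on low counts. Being watered enters the salt effect and the mannitol effect once each, and the combined effect once, because the controls had no recorded watering. The departure therefore holds a watering effect with its sign turned round, and the interaction and watering cannot be told apart in it. Comparisons among the 3 watered groups do not hold that difference and are given beside it, over all departures and for some of the genes. In whole rosettes, fewer cells of a type and less RNA per cell cannot be told apart either.

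The combination departed from the sum in 1322 genes, 6.6% of those tested, at a Benjamini-Hochberg adjusted p under 0.05 in edgeR's quasi-likelihood test. It lay above the sum in 569 genes (2.84% of those tested) and below it in 753 (3.76%), and 247 of the departures were at least 2-fold (1 on the log2 scale). At an unadjusted p under 0.05 there were 4292. For scale, salt alone changed 2191 genes against control (10.9%), mannitol 4727 (23.6%) and the combination 6524 (32.6%). The count of departures depended on single libraries. It fell to 556 without control library 2, 651 without salt 3, 691 without salt 2, 730 without mannitol 2, 735 without salt plus mannitol 3 and 776 without salt plus mannitol 1. All 1322 departures kept their sign in each of these 12 leave-one-out fits, and 459 stayed past the threshold in all 12. Salt 1, mannitol 2 and salt plus mannitol 2 had 0.1009% to 0.1357% of reads on organelle-encoded genes, against 0.02417% to 0.04793% in the 9 other libraries at 22 °C. Without these 3 and mannitol plus heat 2, the fit called 673 departures. Of the genes chosen by the naming rule and described below, PR1, EDS1, EDS16, FNR2, TCH4, AT4G34790, LTI65, LTP3, LTP4, ZIP5, NIR1, PIP2A and RAP2.2 lost their calls in it. With library totals in place of TMM scaling, 327 departures were higher and 1348 lower, and the median over all tested genes moved to -0.10, from which the departures of that scaling are to be read.

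Each gene was then placed in a direction class from its fitted effects. A damped gene moved the same way as the sum but less far, a reversed gene moved against the sum, an enhanced gene went beyond it, and a sum under 0.25 in size on the log2 scale was called near zero. Of the 1322 departures, 758 were damped (57.3%), 380 reversed (28.7%), 17 enhanced (1.29%) and 167 had a sum near zero (12.6%). Over all tested genes the shares were 37.9% damped, 7.07% reversed, 11.2% enhanced and 43.9% near zero. The sum and the departure share the control, salt and mannitol libraries, so error in these 9 libraries pushes genes towards the damped and reversed classes, and the shares carry no test. Of the 758 damped genes, 723 stopped short of the larger separate effect, against 35 that reached or passed it. The salt and mannitol effects had the same sign in 702 of those 723 genes.

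**Figure D1:**
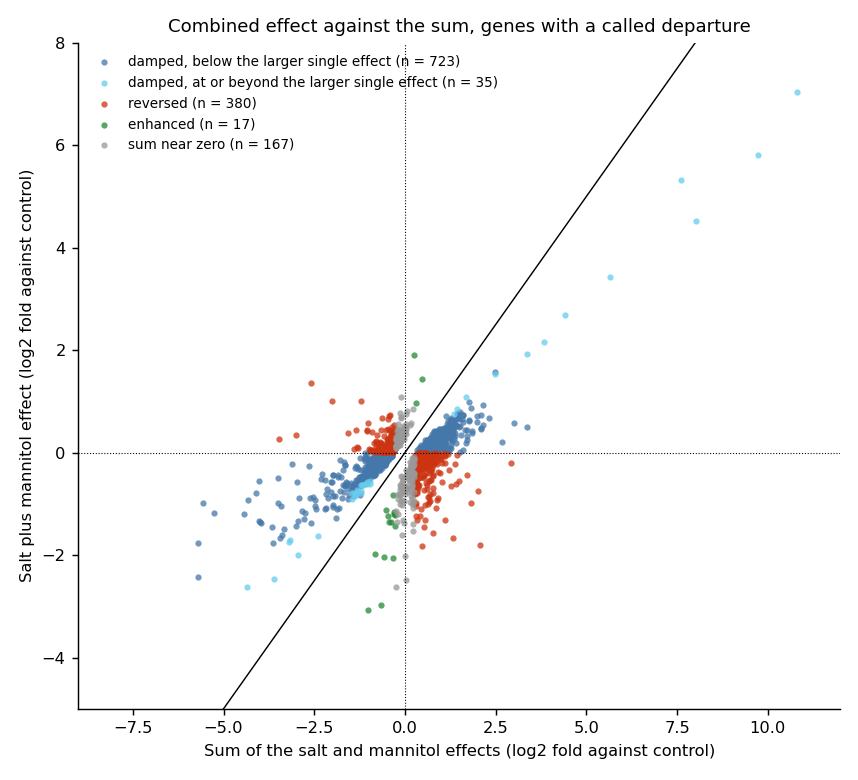
Effect of salt plus mannitol against control (y axis, log2 fold) plotted on the sum of the separate effects (x axis, log2 fold) for the 1322 genes with a called departure. Each point is a gene, coloured by direction class. The solid line marks a combined effect equal to the sum, and most points lie between that line and the horizontal axis.

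**Figure D2:**
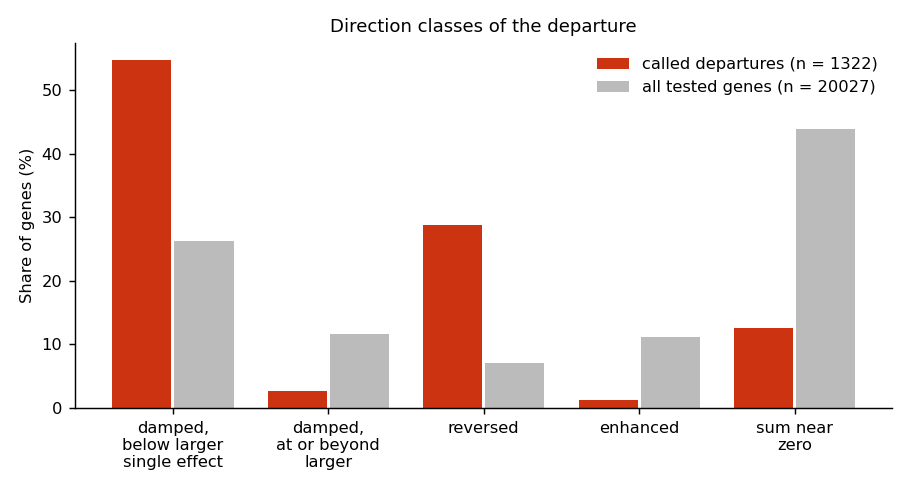
Share of genes (y axis, percent) in each direction class among the 1322 called departures and among all 20027 tested genes. The class damped below the larger single effect holds 54.7% of the called genes and 26.2% of all tested genes, and the reversed class 28.7% and 7.07%.

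A further set was chosen on the separate effects and not on the departure, as the genes that both treatments changed in the same direction. There were 962 of them, 296 raised and 666 lowered. Their combined effect was, in the median, 56.8% of the sum, with quartiles of 41.4% and 69.9%. These genes were picked for large separate effects that share the controls, which raises the sum, so the share carries no test. The combined effect went past the sum in 22 genes and against it in 15. The departure itself was called in 354 of the 962 (36.8%).

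The 3 watered groups can be set against each other directly. The combination differed from salt alone in 4246 genes (21.2% of those tested) and from mannitol alone in 2675 (13.4%). Among the 1322 departures, 121 genes were higher in the combination than in both separate treatments (9.15%, against 1.87% of all tested genes) and 140 were lower than in both (10.6%, against 2.09%). A further 8 lay between the separate treatments and differed from both, 304 (23.0%) differed from salt alone only, and 405 (30.6%) from mannitol alone only. The remaining 344 (26.0%) were called against neither, and 310 of these were in the class damped below the larger single effect. Over all tested genes, 16.9% differed from salt alone only, 9.09% from mannitol alone only and 69.7% from neither. The departure is computed from the same watered libraries as these differences. Larger shares among the departures therefore follow in part from how the genes were chosen, and carry no test. The comparison of salt with mannitol is not reported here.

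Jasmonate genes lay above the sum. Jasmonate is a wound and defence hormone made from chloroplast lipids: lipoxygenases such as LOX2 oxygenate the fatty acid, AOS makes an allene oxide whose ring the AOC enzymes close, and OPR3 and OPCL1 act in the peroxisome. JAZ proteins, of which TIFY7 (JAZ9) is one, hold back the transcription factor MYC2. Of 33 tested members, 11 departed upwards and none downwards (33.3%, where the background is 6.6%), with a median departure of 0.94 against -0.01 over all tested genes. All 33 estimates were positive. The count ran from 5 without control 2 to 12 in the other leave-one-out fits, and was 7 with library totals alone. This list and those below were drawn up with earlier results of these data known. Their shares are therefore descriptions, and setting them beside the background is no test.

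TIFY7 had 50.9, 56.5 and 69.0 TPM in the salt plus mannitol libraries, 44.4, 43.8 and 41.1 TPM in salt, 41.3, 64.5 and 54.7 TPM in mannitol and 112, 108 and 85.3 TPM in controls. Every watered library lay below every control, and the salt libraries lay below those of the combination. Its level fell by 1.25 in salt, by 0.93 in mannitol and by 0.81 in the combination on the log2 scale, where the sum would have been -2.18. The departure was 1.37 ± 0.19 (adjusted p = 0.000564). MYC2, the master activator of the pathway, had 19.3, 18.6 and 21.2 TPM in the salt plus mannitol libraries, 18.6, 15.3 and 14.8 TPM in salt, 15.5, 20.1 and 21.4 TPM in mannitol and 28.9, 31.2 and 28.4 TPM in controls. All 9 watered libraries lay below the controls, and the combination overlapped mannitol, giving a departure of 0.91 ± 0.15 (adjusted p = 0.0013). LOX2 had 513, 521 and 585 TPM in the salt plus mannitol libraries, 409, 351 and 335 TPM in salt, 350.4, 493 and 487 TPM in mannitol and 703, 1045 and 670.2 TPM in controls. Every combination library exceeded every salt and mannitol library and stayed below every control, with a departure of 1.42 ± 0.28 (adjusted p = 0.00622). By test the combination was not told apart from mannitol (0.28 ± 0.20, adjusted p = 0.386).

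Of the enzymes of jasmonate synthesis, AOC2, which closes the ring, had 363, 327 and 356 TPM in the salt plus mannitol libraries, 218, 171 and 152 TPM in salt, 248, 340.0 and 353 TPM in mannitol and 307, 377 and 311 TPM in controls. Only the salt group stood apart, with all 3 libraries below every other library. The salt effect was -0.89 ± 0.13 (adjusted p = 0.000282), the mannitol effect -0.08 ± 0.13 (adjusted p = 0.71) and the combined effect 0.05 ± 0.13 (adjusted p = 0.786), so the combination was not told apart from control. The departure of AOC2 was 1.03 ± 0.19 (adjusted p = 0.00315), that of AOS 0.82 ± 0.19 (adjusted p = 0.0142) and that of AOC1 1.29 ± 0.31 (adjusted p = 0.0191). AOC1 and AOC2 are closely related copies between which reads can be split, so their separate values are uncertain. The other called members were OPR3, OPCL1, JAZ3, JAZ5 and JAZ12, with departures between 0.38 and 1.14, all damped, and each lost its call in 3 to 9 of the 12 leave-one-out fits.

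**Figure D3:**
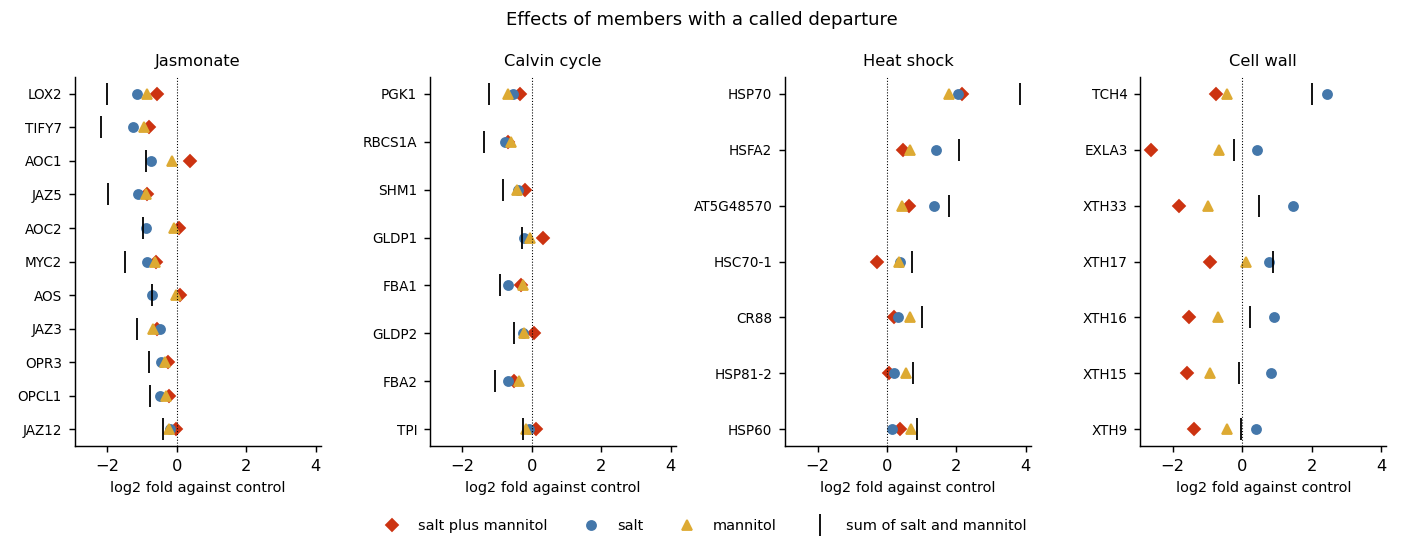
Log2 fold changes against control (x axis) in salt plus mannitol, salt and mannitol, with the sum of the separate effects as a bar, for the members of 4 gene lists whose departure was called (one per row). In the jasmonate and Calvin cycle lists the combination lies to the right of the bar, and in the heat shock and cell wall lists to its left.

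Salicylic acid and immune genes departed upwards as well, in 6 of 32 tested members (18.8%, where the background is 6.6%), with a median of 0.40 and none downwards. The list's median effect was 0.01 in the combination, -0.04 in salt and -0.58 in mannitol. SARD1, a transcription factor that switches on salicylic acid synthesis, had 5.78, 5.17 and 5.50 TPM in the salt plus mannitol libraries, 5.38, 5.77 and 5.24 TPM in salt, 2.102, 2.43 and 2.67 TPM in mannitol and 7.82, 6.84 and 4.54 TPM in controls. The mannitol libraries lay below all 9 others, and the combination and salt groups overlapped. Mannitol lowered SARD1 by 1.41 on the log2 scale, and the departure was 1.41 ± 0.24 (adjusted p = 0.00204). AIG1, named for its induction by a bacterial effector, had the highest departure of all genes that met the naming rule, 4.56 ± 0.76 (adjusted p = 0.00288). It had 3.91, 6.16 and 5.76 TPM in the salt plus mannitol libraries, 2.79, 1.51 and 2.52 TPM in salt, 0.898, 1.04 and 1.08 TPM in mannitol and 21.7, 6.32 and 3.07 TPM in controls. Control library 1 held far more than the other controls, and the combination overlapped the control range, while every mannitol library lay below every other library. Without control 1 the departure of AIG1 was 3.43 (adjusted p = 0.000507). EDS16, which makes the salicylic acid precursor, departed by 0.65 ± 0.17 (adjusted p = 0.0218) and EDS1, an immune regulator, by 0.48 ± 0.12 (adjusted p = 0.0188), and both were higher in the combination than in salt and in mannitol. EDS16 lost its call in 4 leave-one-out fits (without control 2, salt 3, mannitol 2 or salt plus mannitol 3) and EDS1 in 3 (without control 3, salt 3 or mannitol 2). PR1, the usual marker of the response, departed by 3.38 ± 0.94 (adjusted p = 0.0425), but its control libraries ran from 102 to 655 TPM and 11 of 12 leave-one-out fits lost the call. Without salt 3, 2 members of the list were called, and 2 without the libraries of high organelle share.

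Calvin cycle and photorespiration genes formed a further group that lay above the sum, with 8 of 25 tested members called (32%), all higher, and a median departure of 0.38. The count fell to 3 without salt 3. PGK1, phosphoglycerate kinase of the chloroplast, had 430.0, 459.6 and 469 TPM in the salt plus mannitol libraries, 394, 409.9 and 378 TPM in salt, 413, 359.9 and 298 TPM in mannitol and 517, 563 and 637 TPM in controls. Every watered library lay below every control, and the departure was 0.88 ± 0.14 (adjusted p = 0.00159). GLDP2, a glycine decarboxylase subunit of photorespiration, had 93.4, 88.3 and 94.5 TPM in the salt plus mannitol libraries, 75.8, 71.4 and 74.1 TPM in salt, 75.9, 75.1 and 72.7 TPM in mannitol and 83.6, 89.5 and 91.6 TPM in controls. Its combination group overlapped the controls and exceeded every salt and mannitol library, and it departed by 0.56 ± 0.11 (adjusted p = 0.00611). The serine hydroxymethyltransferase SHM1 departed by 0.62 ± 0.14 (adjusted p = 0.009) and the aldolase FBA1 by 0.61 ± 0.15 (adjusted p = 0.0181), a call lost without salt 2, salt 3 or salt plus mannitol 3. RBCS1A, a Rubisco small subunit, lay at 15209 ± 1567 TPM in the combination, 14257 ± 589.9 in salt, 16127 ± 2739.8 in mannitol and 24194 ± 1562 in controls (SD, n = 3 each). Of the 43 tested genes in the list of the light reactions, FNR2 alone was called (2.33%, where the background is 6.6%). It lost its call in 10 of 12 leave-one-out fits. In the functional bins given for the genes, 7 of 105 tested light reaction genes were called (6.67%) and 6 of 31 Calvin cycle genes (19.4%). All of these lay above the sum.

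Chlorophyll metabolism held the gene with the smallest p-value of the whole comparison. HCAR, which reduces hydroxymethyl chlorophyll on the way back from chlorophyll b to a, had 14.2, 13.0 and 14.1 TPM in the salt plus mannitol libraries, 8.85, 8.16 and 8.57 TPM in salt, 8.04, 7.40 and 7.05 TPM in mannitol and 11.0, 12.5 and 14.5 TPM in controls. The combination and control groups overlapped, and all 6 libraries of the separate treatments lay below both. Salt lowered it by 0.58 and mannitol by 0.75 on the log2 scale, the combined effect was 0.11 ± 0.08 (adjusted p = 0.306), and the departure 1.44 ± 0.12 (adjusted p = 2.96e-07). It was called in all 12 leave-one-out fits. PMSR4, a methionine sulfoxide reductase that repairs oxidised proteins, repeated the pattern at a smaller size, with 161, 162 and 161 TPM in the salt plus mannitol libraries, 139, 128 and 123 TPM in salt, 121, 122 and 120.2 TPM in mannitol and 152, 151 and 157 TPM in controls. The single-treatment libraries again lay below all 6 others, and the departure was 0.65 ± 0.09 (adjusted p = 0.000373). CLH1, a chlorophyllase, lay in the class that reached the larger separate effect, where all 3 treatments lowered it: it averaged 46.6 ± 12.03 TPM in the combination, 47.9 ± 4.13 in salt, 54.3 ± 10.6 in mannitol and 155 ± 26.5 in controls, and departed by 1.46 ± 0.28 (adjusted p = 0.00591).

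**Figure D4:**
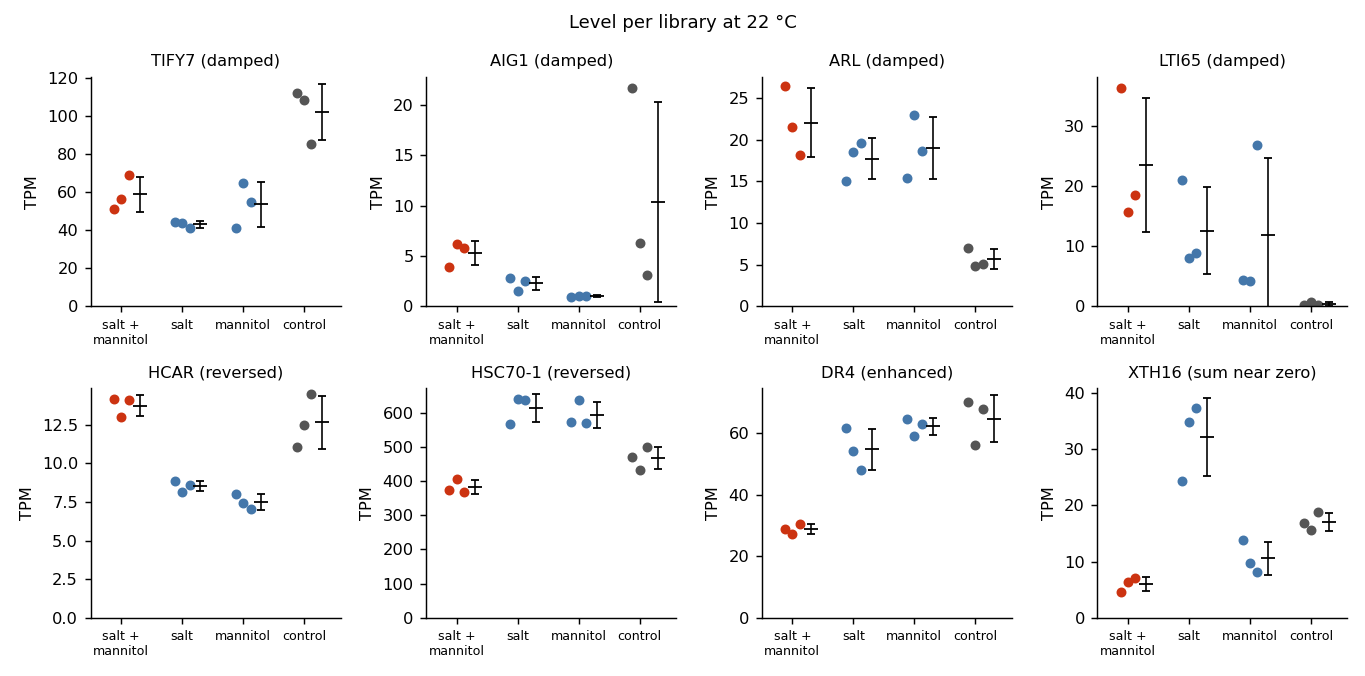
TPM (y axis, from 0) of 8 genes in each library at 22 °C, by group (x axis); the bar beside each group is the mean with its SD (n = 3). In HCAR the salt plus mannitol libraries (13.0 to 14.2 TPM) lie with the controls (11.0 to 14.5 TPM) and above the salt and mannitol libraries (7.05 to 8.85 TPM), and in DR4 they lie below all others (27.4 to 30.5 TPM).

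Called heat shock and cytosolic ribosomal protein genes lay below the sum. Chaperones keep proteins soluble and refold them, and cytosolic heat shock proteins are raised by many stresses besides heat. Of 30 tested heat shock proteins and factors, 7 departed downwards and none upwards (23.3%, where the background is 6.6%), with a median of -0.30. HSC70-1, the main cytosolic HSP70, had 374, 405 and 367 TPM in the salt plus mannitol libraries, 567, 640.4 and 636 TPM in salt, 571, 637 and 569 TPM in mannitol and 470.5, 433 and 499 TPM in controls. Both separate treatments raised it above every control library, while in the combination it fell below every control (combined effect -0.30 ± 0.10, adjusted p = 0.0328). Its departure was -1.03 ± 0.15 (adjusted p = 0.000564). AT5G48570, annotated as a peptidyl-prolyl isomerase of the FKBP type, departed by -1.13 ± 0.19 (adjusted p = 0.00169), the chloroplast HSP90 CR88 by -0.80 ± 0.16 (adjusted p = 0.00532) and the cytosolic HSP81-2 by -0.69 ± 0.14 (adjusted p = 0.00712). These 4 stayed called in all 12 leave-one-out fits, as did HSP70, and the list's count ran from 5 to 8.

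Cytosolic ribosomal proteins departed downwards in 23 of 243 tested genes (9.47%) and upwards in none, with 15 positive estimates among the 243 and a median of -0.30. The median effect over the list was -0.21 in the combination, -0.15 in salt and 0.22 in mannitol. The count was 6 without control 2, up to 68 in the other leave-one-out fits, and 73 with library totals alone. AT3G13580, a member of the L30/L7 family of the large subunit, had 56.1, 59.9 and 55.7 TPM in the salt plus mannitol libraries, 64.0, 64.5 and 61.8 TPM in salt, 71.9, 77.8 and 75.8 TPM in mannitol and 59.7, 53.4 and 51.3 TPM in controls. All mannitol libraries lay above all others, the combination overlapped the controls, and the departure was -0.61 ± 0.10 (adjusted p = 0.00135). The L10 family protein AT1G25260 had 28.0, 31.8 and 29.5 TPM in the salt plus mannitol libraries, 30.6, 36.9 and 29.7 TPM in salt, 49.3, 50.9 and 41.3 TPM in mannitol and 34.9, 26.9 and 25.7 TPM in controls. Its mannitol libraries alone stood apart, and it departed by -0.82 ± 0.16 (adjusted p = 0.00505). Ribosomal proteins have near-identical paralogs, so values of single members are uncertain. The functional bins given for the genes can share members with the lists described here. Of 561 tested genes of protein synthesis, 86 departed downwards and 10 upwards, and of 270 genes of RNA processing 34 and 3. Of 159 photosynthesis genes, 19 departed upwards and none downwards. Over all tested genes, 2.84% departed upwards and 3.76% downwards. The protein folding bin was split, with 5 of 62 tested genes above the sum and 9 below it and a median departure of -0.00074. TCTP, a growth regulator that associates with translation, had 1027, 967 and 1001 TPM in the salt plus mannitol libraries, 1470.5, 1575 and 1538 TPM in salt, 1569.6, 1442 and 1339 TPM in mannitol and 1124, 1079 and 1148 TPM in controls. The combination lay below every other library and the separate treatments lay above every control, with a departure of -1.002 ± 0.11 (adjusted p = 6.68e-05).

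Cell wall loosening genes fell below the sum in 7 of 45 tested expansins and xyloglucan enzymes (15.6%), and none rose above it. Over all tested genes, 3.76% were called below the sum. The list as a whole hardly moved, with a median departure of -0.08 against -0.01 over all tested genes. It had 19 positive estimates among the 45. The XTH enzymes cut and rejoin xyloglucan between cellulose fibres, which lets walls extend. XTH16 had 4.54, 6.36 and 7.10 TPM in the salt plus mannitol libraries, 24.3, 34.8 and 37.3 TPM in salt, 13.8, 9.73 and 8.15 TPM in mannitol and 16.8, 15.6 and 18.7 TPM in controls. The groups did not overlap, with the combination lowest and salt highest. Salt raised XTH16 by 0.91 ± 0.23 on the log2 scale and mannitol lowered it by 0.69, so the sum was near zero, while the combination lowered it by 1.53. The departure was -1.74 ± 0.36 (adjusted p = 0.00805). XTH15 departed by -1.52 ± 0.33 (adjusted p = 0.00819), XTH17 by -1.82 ± 0.39 (adjusted p = 0.00781) and XTH33 by -2.30 ± 0.55 (adjusted p = 0.0158), XTH15 and XTH16 being close relatives. XTH9 lay at 28.9 ± 6.20 TPM in the combination, 99.1 ± 16.3 in salt, 54.6 ± 14.7 in mannitol and 74.0 ± 9.01 in controls (SD, n = 3 each), and departed by -1.35 ± 0.31 (adjusted p = 0.0158), a call lost without control 2. The touch-induced XTH gene TCH4 departed by -2.76 ± 0.79 (adjusted p = 0.0469), a call kept in 1 of 12 leave-one-out fits.

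AGP7 and PATL2 were among the genes named for their low departures. AGP7, an arabinogalactan protein, had 6.74, 11.6 and 8.10 TPM in the salt plus mannitol libraries, 42.2, 62.9 and 82.0 TPM in salt, 20.8, 16.3 and 11.5 TPM in mannitol and 20.9, 14.5 and 14.3 TPM in controls. Every salt library lay above all others, and the combination lay below every control and overlapped mannitol. The salt effect was 1.89 ± 0.25 (adjusted p = 0.000195) and the combined effect -0.98 ± 0.30 (adjusted p = 0.0182), giving a departure of -2.80 ± 0.39 (adjusted p = 0.000796). PATL2, a lipid-binding patellin, had 2.81, 4.72 and 4.88 TPM in the salt plus mannitol libraries, 22.2, 32.3 and 47.2 TPM in salt, 7.31, 7.54 and 4.98 TPM in mannitol and 12.9, 7.62 and 9.95 TPM in controls. Here too salt was highest and the combination lowest, and the departure was -2.42 ± 0.47 (adjusted p = 0.00713). Auxin response genes held 2 calls in 37 tested members (5.41%, below the background of 6.6%), both downwards, SAUR68 and IAA19, each kept in 3 of 12 leave-one-out fits. A SAUR-like gene outside the list's symbols, AT4G34790, had 1.35, 1.36 and 0.914 TPM in the salt plus mannitol libraries, 5.83, 6.65 and 10.76 TPM in salt, 10.3, 8.67 and 3.51 TPM in mannitol and 9.36, 7.92 and 10.7 TPM in controls. The 9 libraries of the other groups all exceeded the combination, neither separate effect was called, and it departed by -2.33 ± 0.57 (adjusted p = 0.0168). The call was lost without salt 3 or salt plus mannitol 3.

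Dehydration genes whose departure was called lay below the sum. LTI65 (also known as RD29B) is a standard reporter of abscisic acid in leaves, and LTP3 and LTP4 are lipid transfer proteins of the epidermis and cuticle. All 4 called members of 32 tested lay below the sum (12.5%, where the background is 6.6%). The list median was -0.60, with 8 positive estimates among the 32. LTI65 had 36.3, 15.7 and 18.6 TPM in the salt plus mannitol libraries, 21.0, 8.03 and 8.86 TPM in salt, 4.37, 4.26 and 26.8 TPM in mannitol and 0.286, 0.78 and 0.159 TPM in controls. Mannitol library 3 held about the level of the combination, far above the other mannitol libraries, and every watered library exceeded every control. LTI65 rose by 5.81 ± 0.89 on the log2 scale in the combination, by 4.91 ± 0.91 in salt and by 4.83 ± 0.90 in mannitol, and departed by -3.93 ± 1.13 (adjusted p = 0.0475). LTP4 had 1304, 737 and 1056 TPM in the salt plus mannitol libraries, 453, 247 and 557 TPM in salt, 42.5, 117 and 579 TPM in mannitol and 11.4, 7.42 and 3.41 TPM in controls. All combination libraries exceeded all others, and the departure was -3.78 ± 1.06 (adjusted p = 0.0442). LTP3, a neighbouring and similar gene, was the one of these 4 higher in the combination than in both separate treatments by test, and departed by -2.30 ± 0.61 (adjusted p = 0.0357). DAA1, an ATPase family member, departed by -3.51 ± 0.90 (adjusted p = 0.0293), with controls at only 0.116 to 0.476 TPM. These departures belong to the log2 scale. In mean TPM, the rise in the combination exceeded the separate rises added together in LTP4. It was close to them in LTI65 and fell short of them in DAA1. Without mannitol 3, the departure was -2.48 for LTI65 and -2.08 for LTP4, neither past the threshold. These 4 calls were kept in 2 to 6 of the 12 leave-one-out fits, and without control 2 none was called. ARL, which promotes cell expansion, showed the same class on firmer values, with 26.4, 21.5 and 18.2 TPM in the salt plus mannitol libraries, 15.0, 18.6 and 19.7 TPM in salt, 15.5, 22.9 and 18.6 TPM in mannitol and 7.04, 4.83 and 5.07 TPM in controls. Its watered groups overlapped and all exceeded the controls, and it departed by -1.44 ± 0.24 (adjusted p = 0.00164).

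Enhanced departures, where the combination exceeded the sum, were rare. DR4, named for its repression in drought, had 28.8, 27.4 and 30.5 TPM in the salt plus mannitol libraries, 61.7, 54.4 and 48.2 TPM in salt, 64.7, 59.2 and 63.0 TPM in mannitol and 70.2, 56.2 and 68.0 TPM in controls. The combination lay below every other library while the salt and mannitol groups overlapped the controls, with effects of -0.25 ± 0.12 and -0.06 ± 0.12 that did not pass the test. The combined effect was -1.19 ± 0.13 (adjusted p = 1.01e-06) and the departure -0.88 ± 0.18 (adjusted p = 0.00594). HKL1, a hexokinase-like protein, had 2.36, 3.17 and 2.45 TPM in the salt plus mannitol libraries, 6.83, 8.10 and 7.81 TPM in salt, 3.98, 3.90 and 3.17 TPM in mannitol and 6.39, 5.62 and 6.66 TPM in controls. Mannitol lowered it, the combination lowered it further by test (-0.48 ± 0.13 against mannitol, adjusted p = 0.0193), and the departure was -0.76 ± 0.18 (adjusted p = 0.0142). ZIP5, a zinc transporter, had 11.4, 14.7 and 12.4 TPM in the salt plus mannitol libraries, 2.55, 2.64 and 3.05 TPM in salt, 8.21, 12.6 and 12.2 TPM in mannitol and 5.16, 4.58 and 4.26 TPM in controls. Salt and mannitol moved it in opposite directions, the combination and mannitol groups overlapped, and the departure was 0.98 ± 0.23 (adjusted p = 0.0136). Only 3 of the 17 enhanced departures were upwards.

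In 167 departures the sum of the separate effects was near zero, and in 50 of these the salt and mannitol effects had the same sign. ATSPS4F, a sucrose phosphate synthase, had 15.8, 16.3 and 15.99 TPM in the salt plus mannitol libraries, 8.03, 5.41 and 6.47 TPM in salt, 11.2, 12.3 and 12.2 TPM in mannitol and 8.25, 9.66 and 10.04 TPM in controls. All combination libraries exceeded all others and all salt libraries lay below all others, with a departure of 0.92 ± 0.18 (adjusted p = 0.00532). GATA4, a transcription factor, had 20.8, 23.4 and 20.6 TPM in the salt plus mannitol libraries, 34.8, 43.0 and 38.6 TPM in salt, 25.5, 24.2 and 23.7 TPM in mannitol and 29.1, 27.5 and 29.7 TPM in controls. Its combination group was lowest and its salt group highest, and it departed by -0.62 ± 0.13 (adjusted p = 0.0069). Of the 167 genes, 114 were called in neither separate treatment, yet 146 were called in the combination against control.

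Several smaller lists had calls in a single direction. Glucosinolate genes departed upwards in 5 of 28 tested members (17.9%). CYP83B1, of indole glucosinolate synthesis, averaged 210.3 ± 13.9 TPM in the combination, 93.0 ± 11.5 in salt, 193 ± 23.6 in mannitol and 154 ± 22.4 in controls, and departed by 0.85 ± 0.17 (adjusted p = 0.00591). Reactive oxygen enzymes departed upwards in 5 of 31 (16.1%), led by the chloroplast peroxiredoxin PRXQ with 0.77 ± 0.14 (adjusted p = 0.00328) and the dehydroascorbate reductase DHAR1 with 0.82 ± 0.19 (adjusted p = 0.0139). Without control 2, each of these lists kept 1 call. Nitrogen genes had 4 calls above and 3 below the sum among 33 tested (21.2%). The list kept 3 calls without control 3, and 3 above and 0 below the sum without the libraries of high organelle share. The nitrate transporter NRT2.7 had 40.2, 36.0 and 33.6 TPM in the salt plus mannitol libraries, 26.3, 21.0 and 17.2 TPM in salt, 24.9, 20.3 and 25.4 TPM in mannitol and 26.6, 31.0 and 23.3 TPM in controls. Every combination library exceeded all others, and the departure was 0.96 ± 0.19 (adjusted p = 0.00534). Nitrite reductase NIR1 lay below the sum, at 57.1 ± 3.69 TPM in the combination, 70.4 ± 6.67 in salt, 78.7 ± 6.44 in mannitol and 66.8 ± 4.80 in controls, with a departure of -0.54 ± 0.13 (adjusted p = 0.0188), a call lost without salt 3. Further lists had 1 call each, in 18 aquaporins (5.56%), 22 flavonoid genes (4.55%), 24 clock genes (4.17%) and 37 ethylene response factors (2.7%), shares below the background of 6.6%. The called members were the aquaporin PIP2A, with a departure of 0.49 ± 0.11 (adjusted p = 0.0139), and PAL1, at the entry of phenylpropanoid synthesis, with one of 0.75 ± 0.17 (adjusted p = 0.0121). The clock-controlled RNA-binding protein GRP7 departed by -0.70 ± 0.13 (adjusted p = 0.00419) and the ethylene response factor RAP2.2 by -0.43 ± 0.10 (adjusted p = 0.0123).

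Other lists gave few or no calls in edgeR, each at a share below the background of 6.6%. In lists of this size a share near the background also means few calls, and the shares were not tested against it. No departure was called among 43 glutathione S-transferases, 26 sodium and potassium transport genes, 18 genes of the unfolded protein response and 19 senescence genes, with medians of 0.23, 0.05, 0.01 and -0.21. Of 40 tested osmolyte genes 2 departed (5%), P5CR of proline synthesis and the sugar transporter STP1, both downwards. Of 26 genes of abscisic acid synthesis, signalling and breakdown 1 departed (3.85%), ABA1, upwards. P5CR and ABA1 lost their calls in 7 of the 12 leave-one-out fits each and STP1 in 9. WRKY factors had 2 calls in 55 (3.64%), cysteine-rich receptor-like kinases 1 in 35 (2.86%), low oxygen response genes 1 in 20 (5%) and histones 1 in 37 (2.7%).

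Markers of tissues were followed in the same libraries. The summed level of 6 mesophyll markers was 26636.5 to 30783.5 TPM in the combination, 28394.6 to 31148.3 in salt, 26689.6 to 35736.1 in mannitol and 40138.1 to 46854.4 in controls. The 10 guard cell markers summed to 28.3 to 33.8 TPM in the combination, 40.1 to 41.6 in salt, 39.5 to 42.6 in mannitol and 48.4 to 57.5 in controls. The 13 root markers ran from 35.4 to 41.3 TPM and the 12 flower markers from 8.43 to 11.7 TPM over all 12 libraries, with MRN1 at 0 in all 4 groups, and the 11 phloem and vein markers from 402 to 483 TPM. Of these lists, RBCS1A among the mesophyll markers was the one call, lost without control 2, salt 3 or salt plus mannitol 3. The part of cell composition in the departures was not tested.

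Promoters were searched for 6 motifs in the 250 bases before the annotated start of 19883 tested genes, on both strands, in the TAIR10.1 assembly with the RefSeq annotation. The abscisic acid response element (ABRE) was searched as ACGTGNC. The G-box, bound by MYC and bZIP factors and able to overlap the ABRE, was searched as CACGTG. The W-box core, bound by WRKY factors, was searched as TTGAC. The core of the dehydration-responsive element was searched as CCGAC. The GCC box, bound by ethylene response factors, was searched as GCCGCC. The site II element, common in promoters of ribosomal protein genes, was searched as TGGGCC. The ABRE was present in 12.7% of promoters of genes above the sum and 5.44% of those below it, beside 9.50% of all tested genes. The G-box was present in 9.68%, 3.98% and 7.40% in the same order. The site II element was present in 14.8% of promoters of genes above the sum and 22.7% of those below it, beside 16.4% of all tested genes and 52.3% of the ribosomal protein list. Among genes below the sum it was in 28.1% of those damped short of the larger separate effect, 19.0% of reversed ones and 10.53% of those with a sum near zero. The W-box core, the dehydration core and the GCC box stood at 41.3%, 12.9% and 1.06% among all departures, beside 45.0%, 12.9% and 1.99% of all tested genes. The following promoters, chosen after their motifs were seen, show where the motifs lie in a dehydration, a jasmonate, a ribosomal and a chaperone gene. LTI65 was read from chr5:21236771-21237020 (plus strand), TIFY7 from chr1:26654279-26654528 (plus strand), AT1G25260 from chr1:8855875-8856124 (minus strand) and HSC70-1 from chr5:556624-556873 (minus strand). Capitals mark matches to any of the 6 motifs on either strand.
LTI65: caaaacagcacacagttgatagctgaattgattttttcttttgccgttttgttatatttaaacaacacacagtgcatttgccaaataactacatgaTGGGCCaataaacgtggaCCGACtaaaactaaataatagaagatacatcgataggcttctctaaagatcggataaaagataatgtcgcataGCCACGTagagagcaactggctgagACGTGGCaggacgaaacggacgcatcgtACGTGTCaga
TIFY7: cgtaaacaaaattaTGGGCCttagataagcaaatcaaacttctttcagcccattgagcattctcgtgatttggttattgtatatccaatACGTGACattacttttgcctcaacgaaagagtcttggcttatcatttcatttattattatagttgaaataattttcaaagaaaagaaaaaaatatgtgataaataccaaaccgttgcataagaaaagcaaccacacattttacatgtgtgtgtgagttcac
AT1G25260: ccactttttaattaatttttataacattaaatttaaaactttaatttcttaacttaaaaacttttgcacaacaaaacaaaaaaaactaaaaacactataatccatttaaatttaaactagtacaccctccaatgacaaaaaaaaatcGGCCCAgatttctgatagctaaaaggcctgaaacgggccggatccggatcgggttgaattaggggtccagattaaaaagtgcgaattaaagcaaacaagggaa
HSC70-1: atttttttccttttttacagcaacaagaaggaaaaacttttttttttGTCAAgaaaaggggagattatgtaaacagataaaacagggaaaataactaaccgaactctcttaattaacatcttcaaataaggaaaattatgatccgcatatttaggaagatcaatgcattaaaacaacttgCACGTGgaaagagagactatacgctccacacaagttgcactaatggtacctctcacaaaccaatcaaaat
LTI65 holds 3 ABREs, 1 dehydration core and 1 site II element, TIFY7 holds 1 ABRE and 1 site II element, AT1G25260 holds 1 site II element, and HSC70-1 holds 1 G-box and 1 W-box core. These are matches of letters, not measured binding sites.

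The same departure was then fitted in the heated libraries, as salt plus mannitol plus heat, minus salt plus heat, minus mannitol plus heat, plus heat alone. This departure also holds a watering effect with its sign turned round, because plants given heat alone had no recorded watering. It was called in 288 genes there (1.44% of those tested), 158 higher and 130 lower, a count that ran from 60 without salt plus heat 1 to 1023 without mannitol plus heat 2. The 1322 genes called at 22 °C had a median departure of 0.64 in size at 22 °C and 0.23 in heat, and the 288 genes called in heat had one of 0.27 at 22 °C and 0.79 in heat. Each set was chosen on its departure at a single temperature, so a smaller size at the other follows from the choice. The departures of the 1322 genes had the same sign in heat in 981 genes (74.2%), beside 58.6% of all tested genes. Both tests called 52 genes, 3.93% of the 1322 and 18.1% of the 288, and 49 of the 52 had the same sign. The departure at 22 °C minus that in heat was called in 70 of all tested genes (0.35%), and in 57 of the 1322.

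**Figure D5:**
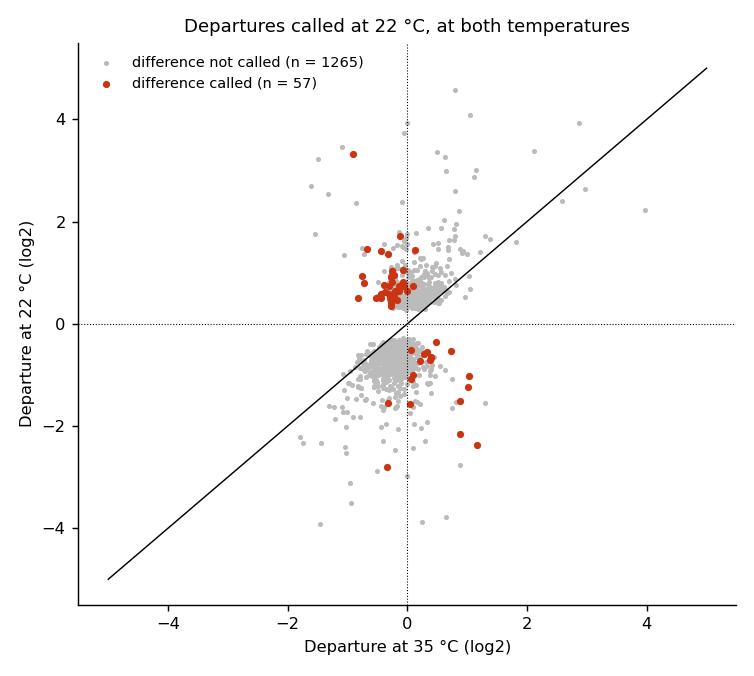
Departure at 22 °C (y axis, log2) plotted on the departure at 35 °C (x axis, log2) for the 1322 genes called at 22 °C; the solid line marks equal departures. The 57 genes whose difference was called are in red, and the genes were chosen for their departure at 22 °C, so smaller values in heat follow from the choice.

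HCAR departed by 1.44 ± 0.12 at 22 °C and 0.12 ± 0.11 in heat, a difference of 1.32 ± 0.16 (adjusted p = 0.000519). TIFY7 departed by 1.37 ± 0.19 and -0.33 ± 0.19, a difference of 1.702 ± 0.27 (adjusted p = 0.0121), and MYC2 by 0.91 ± 0.15 and -0.28 ± 0.14, a difference of 1.19 ± 0.20 (adjusted p = 0.0161). Both jasmonate regulators had negative estimates in heat, where neither departure was called. NIR1 lay below the sum at 22 °C and above it in heat (0.74 ± 0.14, adjusted p = 0.0108), with a difference of -1.28 ± 0.19 (adjusted p = 0.00564). HSC70-1 kept its departure, at -0.79 ± 0.15 in heat (adjusted p = 0.0125), and so did TCTP, at -0.49 ± 0.11 (adjusted p = 0.0313). XTH16 departed by 0.05 ± 0.37 in heat, but its difference between the temperatures did not pass the test (adjusted p = 0.124).

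Because the sum at 22 °C shares libraries with the departure, the heated libraries were used to give each gene a direction from separate samples. Salt changed 1.03% of tested genes against heat alone and mannitol 12.3%, and 142 genes were called in both in the same direction. The departure at 22 °C ran against that direction in 93 of them (65.5%), and in 24 of the 27 whose departure was called. Plants given heat alone had no recorded watering either. A watering effect therefore enters this direction and, with its sign turned round, the departure at 22 °C. Separate libraries do not remove that link, and the interaction and watering cannot be told apart in these counts. These genes are not independent of each other, and no test was made.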

How the data were processed

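Per the labels' protocols, poly(A) RNA of rosettes was sequenced as paired reads of 100 bp. The authors deposited estimated counts from kallisto, per the file headers. Within each library these were whole multiples of a constant, within a tolerance of 0.001 for 95.6% to 96.0% of values at 22 °C, and they were divided by it and rounded before testing. The deposited TPM values (a signal, rescaled before deposit to sums of 0.920 to 1.06 M) give levels only. Columns of q-values (each a corrected p-value) and natural log (ln) fold changes, which the authors obtained with sleuth, were deposited too and served in no test. Totals ran from 14.2 to 19.5 M reads at 22 °C, with 22028 to 22369 genes detected. No total count enters an interval here, and depth limits low genes such as ACS11 most.

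Counts of all 24 libraries were fitted in edgeR 4.0.16 (R 4.3.3) with TMM, filterByExpr and robust quasi-likelihood F tests, and p-values adjusted by Benjamini-Hochberg over 20027 genes per comparison. The ± beside a log2 value is an SE worked back from the estimate and its F statistic, and beside a TPM mean its SD. Tests on simulated counts were run first. Named genes had an adjusted p under 0.05, a mean of at least 5 TPM in a group and at least 3 counts in every group. They were the 10 highest and 10 lowest departures, the 4 smallest p-values per class and up to 4 called members per list, with printed ones chosen among these. List members printed beyond them, the iron genes and the promoters shown were chosen after their values were seen. The members and lists were chosen with earlier results of these data known. Alternatives were DESeq2 1.42.0, RLE scaling, library totals, no filter, limma 3.58.1 on log2(TPM + 1) and log2(TPM + 0.1), the 4 groups alone, the deposited counts undivided, other thresholds, the replicate block and leaving out libraries. Leaving out the libraries of high organelle share was extended to the classes and named genes after seeing the data.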

Additional observations from a re-analysis of the deposited data

Results flagged for a closer look

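Departures of 8 named genes differed between 22 °C and heat by the test of the difference itself. Each is given as the departure at 22 °C minus that in heat, on the log2 scale, from n = 3 libraries in each of 8 groups. HCAR differed by 1.32, NIR1 by -1.28, TIFY7 by 1.702 and MYC2 by 1.19, and these 4 stayed past the threshold in all 24 fits that left out a library. PMSR4 differed by 0.66 and was kept in 18 of the 24. CLH1 differed by 2.15 (adjusted p = 0.0346, kept in 10), AGP7 by -2.47 (adjusted p = 0.0442, kept in 8) and LOX2 by 1.87 (adjusted p = 0.0442, kept in 7). HCAR departed by 1.44 at 22 °C and 0.12 in heat. NIR1, TIFY7, MYC2, LOX2, CLH1 and PMSR4 had estimates of opposite sign in heat, and of these 6 the departure in heat passed the test in NIR1 only.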

How the results depend on the processing

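The count of 1322 departures was 1600 in DESeq2, 1342 with RLE scaling, 1675 with library totals, 1097 without the filter, 1203 and 1199 in limma with pseudocounts of 1 and 0.1, 1429 with the 4 groups alone and 1262 with undivided counts. Every gene called in any of these and in the chosen fit kept its sign, 1223 genes in DESeq2 and 1080 with library totals. Library totals gave 327 higher and 1348 lower departures (19.5% higher, against 43.0%). Without the libraries of high organelle share 673 were called, 287 higher and 386 lower, with 322 damped short of the larger effect, 7 damped at or beyond it, 4 enhanced and 74 near zero. A change of at least 1 on the log2 scale left 247, of which 103 were higher and 144 lower, with 109, 12, 100, 7 and 19 in the classes damped short, damped beyond, reversed, enhanced and near zero, and it left 90 in heat. A margin of 0.5 gave 175 reversed, 5 enhanced and 436 near zero, and a margin of 0 gave 60 enhanced and 0 near zero. DESeq2 called 648 departures in heat and 349 differences between temperatures, with 27 enhanced and 267 near zero, and limma called 45 and 44 differences, with 11 enhanced at a pseudocount of 1. The cause of these shifts was not tested, apart from thresholds that keep fewer genes by construction.

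Leaving out each library gave 556 to 1438 departures (253 to 592 higher, 303 to 846 lower), with 303 to 877 damped short, 13 to 33 damped beyond, 177 to 532 reversed, 4 to 26 enhanced and 47 to 264 near zero. The lowest totals came without control 2 and the highest without mannitol 3. It gave 60 to 1023 departures in heat and 11 to 289 differences. Counts against control were 1042 to 2396 for salt, 3239 to 4966 for mannitol and 4493 to 6651 for the combination, and 2685 to 4456 against salt and 884 to 3524 against mannitol. Deviations from the group mean had correlations between -0.33 and 0.28 in libraries of the same replicate number. These values do not settle whether the numbers pair the samples. The replicate block gave 1191 departures. Among named genes no alternative turned a sign.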

Other observations

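Genes of iron uptake, transport, sensing and storage, a group picked after the values were seen, were looked at as well. By test, 4 of the 12 lay above the sum and none below it. Over all tested genes 2.84% were called above the sum, but genes picked from their values cannot be measured against that share. FRO3, a ferric chelate reductase, had 5.79, 6.19 and 5.54 TPM in the salt plus mannitol libraries, 7.28, 7.54 and 6.97 TPM in salt, 4.27, 3.51 and 3.17 TPM in mannitol and 7.40, 9.47 and 10.6 TPM in controls. Every mannitol library lay below all others, and the departure was 1.01 ± 0.17 (adjusted p = 0.00204), kept in all 12 leave-one-out fits. BTS, which marks iron regulators for breakdown, departed by 1.08 ± 0.26 (adjusted p = 0.02), the transporter OPT3 by 0.68 ± 0.19 (adjusted p = 0.0415) and the regulator bHLH38, at under 4 TPM in every library, by 4.09 ± 1.16 (adjusted p = 0.0422). OPT3 lost its call in 9 of the 12 leave-one-out fits, bHLH38 in 8 and BTS in 2 (without salt 2 or salt 3). The ferritins FER1, FER3 and FER4, which store iron, had departures of -1.27 ± 0.66, -0.32 ± 0.58 and -0.52 ± 0.33, none past the threshold.

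Among genes with the largest departures that fall in none of the lists, MES18, a methyl esterase, had 2.97, 4.29 and 4.15 TPM in the salt plus mannitol libraries, 1.82, 1.17 and 1.52 TPM in salt, 2.53, 1.47 and 1.06 TPM in mannitol and 4.69, 5.05 and 6.21 TPM in controls. Every combination library exceeded every salt and mannitol library, and the departure was 2.99 ± 0.39 (adjusted p = 0.000273). AT1G73325, a Kunitz-type protease inhibitor, had 1.52, 1.697 and 4.34 TPM in the salt plus mannitol libraries, 1.702, 1.46 and 1.02 TPM in salt, 0.337, 1.84 and 0.749 TPM in mannitol and 7.12, 11.7 and 6.29 TPM in controls. Every watered library lay below every control, and the departure was 3.94 ± 0.72 (adjusted p = 0.00433). By test the combination was not told apart from salt (0.83 ± 0.53, adjusted p = 0.295) or from mannitol (1.33 ± 0.54, adjusted p = 0.112). The thionin AT1G66100 was lowered by all 3 treatments, at 254 ± 82.1 TPM in the combination, 376 ± 61.8 in salt, 313 ± 112 in mannitol and 1521 ± 361 in controls (SD, n = 3 each). It departed by 1.71 ± 0.35 (adjusted p = 0.00819), and its combination was called against neither separate treatment.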
